A study of Mus musculus with 11 samples.

Results

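Pitx1/Car4-positive endoderm cells were the endoderm cells of naive extra-embryonic endoderm (nEnd) cultures that carried at least 2 UMIs of the homeobox gene Pitx1 and the carbonic anhydrase gene Car4 together. A UMI (unique molecular identifier) marks 1 captured RNA molecule. Barcodes with 2700 or more UMIs and at most 12% mitochondrial UMIs were kept, and endoderm cells were those with 3000 or more UMIs per 1000000 UMIs of the cell (CPM) of the basement membrane genes Sparc, Col4a1 and Col4a2 summed and under 1000 CPM of the fibrillar collagens Col1a1, Col1a2 and Col3a1 summed. Cells with more than 1 UMI of the gastrokine and trefoil genes Tff1, Gkn1 and Gkn2, or with 3 or more UMIs of the uptake receptor genes Amn and Cubn, were left out. The rule gave 3515 of 14179 cell barcodes: 519 of the 1432 endoderm cells without 4-hydroxytamoxifen (-4OHT) and 2996 of the 6291 endoderm cells with it (+4OHT). The other endoderm cells of the same library, 913 and 3295, were the reference.

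PITX1 is a bicoid-type homeodomain transcription factor known from hindlimb, pituitary and oral development. CAR4 is a carbonic anhydrase anchored to the outer cell membrane, where it converts carbon dioxide and bicarbonate into each other. The other marker genes given with the rule are Msl3, a chromodomain subunit of the MSL histone acetyltransferase complex, Cited1, a transcriptional co-activator without a DNA-binding domain, and Cryab, a small heat shock protein. Extra-embryonic endoderm descends from the primitive endoderm of the blastocyst and forms parietal endoderm, which lays down a thick basement membrane, and visceral endoderm, which takes up and secretes nutrients.

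The single-cell data came from Oct4LOF nEnd (labelled EPUc), derived from embryonic stem cells homozygous for an Oct4 (gene symbol Pou5f1) allele that 4OHT deletes. PDGFRA-positive cells of this line were sorted and grown in RACL medium (Activin A, CHIR99021 and LIF) with 4OHT or left untreated. By the paper, a further period in normal RACL medium followed. The cells were then sorted again for live cells, with 1 droplet library per condition. The bulk data came from nEnd with an OCT4-mCherry protein reporter, untreated and sorted by flow cytometry into cells with surface PDGFRA alone (Pdgfra+), with both markers (DP) and with the reporter alone (Oct4+), giving 3 libraries each. The study calls its bulk libraries biological replicates without saying what was kept separate, and p-values measure the spread between these libraries.

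With 1 library per condition, no difference between -4OHT and +4OHT could be tested, and all intervals on single-cell values are exact 95% intervals for counting error only. The endoderm cells left after removing the members differed between the libraries: 782 of 913 were Amn/Cubn-high in -4OHT, and 1864 of 3295 carried gastrokine or trefoil UMIs in +4OHT. The 2 libraries shared 21 barcodes, none of them a member in both. In -4OHT, 54 members (10.4%) were among the 5% of that library's barcodes with the highest doublet score, with a median of 28088.5 UMIs against 12616 over all members. Of the remaining endoderm of -4OHT, 9.53% were among those barcodes too. Values are with all members unless said otherwise.

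The members carried the genes that name them, with one qualification. All 16 listed endoderm genes, among them Gata6, Sox17 and Pdgfra, reached at least 1 CPM in the members of both libraries, and summed to 19724 CPM in -4OHT and 23241 in +4OHT; the list includes Sparc, Col4a1 and Col4a2, which the rule reads. In the remaining endoderm the same genes summed to 15225 and 28195, so the members stood below it in +4OHT. Epiblast-like cells, a class set after the values were seen, had 3 or more UMIs of Sox2, Nanog, Zfp42 and Dppa5a together. They were also required to have under 1000 CPM of Sparc, Col4a1 and Col4a2 summed. The endoderm genes summed to 342 and 988 there, a gap from the members that the 2 rules partly fix. In the members, feeder fibroblast genes summed to 85.9 and 104 CPM, with 4 of 12 and 2 of 12 at 0, and genes of the 2-cell-like state to 1.87 and 0.336. The qualification concerns Car4: 191 members in -4OHT (36.8%) and 1283 in +4OHT (42.8%) had no Car4 UMI and entered through Pitx1, whereas 7 and 71 entered through Car4 without Pitx1. Both genes were counted in 321 members (61.8%) in -4OHT and 1642 (54.8%) in +4OHT.

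The members made up 36.2% of endoderm cells in -4OHT (95% interval 33.7 to 38.8%) and 47.6% in +4OHT (46.4 to 48.9%). When each cell was thinned to 2700 UMIs, 19.5% and 19.7% still had 2 or more UMIs. The shares were thus close at that depth and threshold, but thinning also raises the level a cell needs to pass. A further 143 of the 1432 endoderm cells in -4OHT and 1097 of the 6291 in +4OHT met the other parts of the rule with 1 thinned UMI. The median depth of members was 12616 and 13600 UMIs, and the part of depth in the gap was not tested. The rule reads UMIs, and the median depth of a cell went up with its count, from 9884 UMIs at none to 14221 at 13 or more in -4OHT and from 10379 to 17403.5 in +4OHT. Members carried a median of 8 UMIs of the pair (range 2 to 40) in -4OHT and 6 (2 to 49) in +4OHT. Just inside the threshold, with 2 UMIs, lay 50 and 410 cells, and just outside it, with 1 UMI, lay 31 and 581.

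Background RNA was judged from epiblast-like cells, where few carried the pair in -4OHT and a larger share did in +4OHT. That class was limited to cells low in Sparc, Col4a1 and Col4a2. Cells with much background RNA from endoderm could thus be left out, and the shares may understate it. Among epiblast-like cells, at a median of 18709 UMIs, 0.759% had 2 or more UMIs of the pair in -4OHT. The share was 7.69% of the 104 epiblast-like cells in +4OHT, at a median of 14688. After thinning, Pitx1 was seen in 71.7% of members and 0.101% of epiblast-like cells in -4OHT, and in 64.2% and 6.73% in +4OHT.

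Pitx1 and Car4 also occurred outside the members, in classes the rule leaves out. Of the remaining endoderm cells, 284 of 913 in -4OHT (31.1%) and 1166 of 3295 in +4OHT (35.4%) had 2 or more UMIs of the pair. The share of members is therefore not the share of all endoderm cells with the pair. Pitx1 stood at 576 CPM (559 to 593) in the -4OHT members, 97.5 (70.0 to 132) in gastrokine/trefoil cells and 38.7 (35.7 to 42.0) in Amn/Cubn-high cells. In +4OHT it stood at 432 (426 to 438) in the members, 306 (285 to 328) in Amn/Cubn-high cells and 271 (265 to 278) in gastrokine/trefoil cells. Pitx1 was thus nearer to the members' level in these classes of +4OHT than in those of -4OHT. Car4 followed another order, with 153 CPM in the -4OHT members, 62.3 in Amn/Cubn-high cells and 9.51 in gastrokine/trefoil cells, and 123, 103 and 37.4 in +4OHT.

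**Figure D1:**
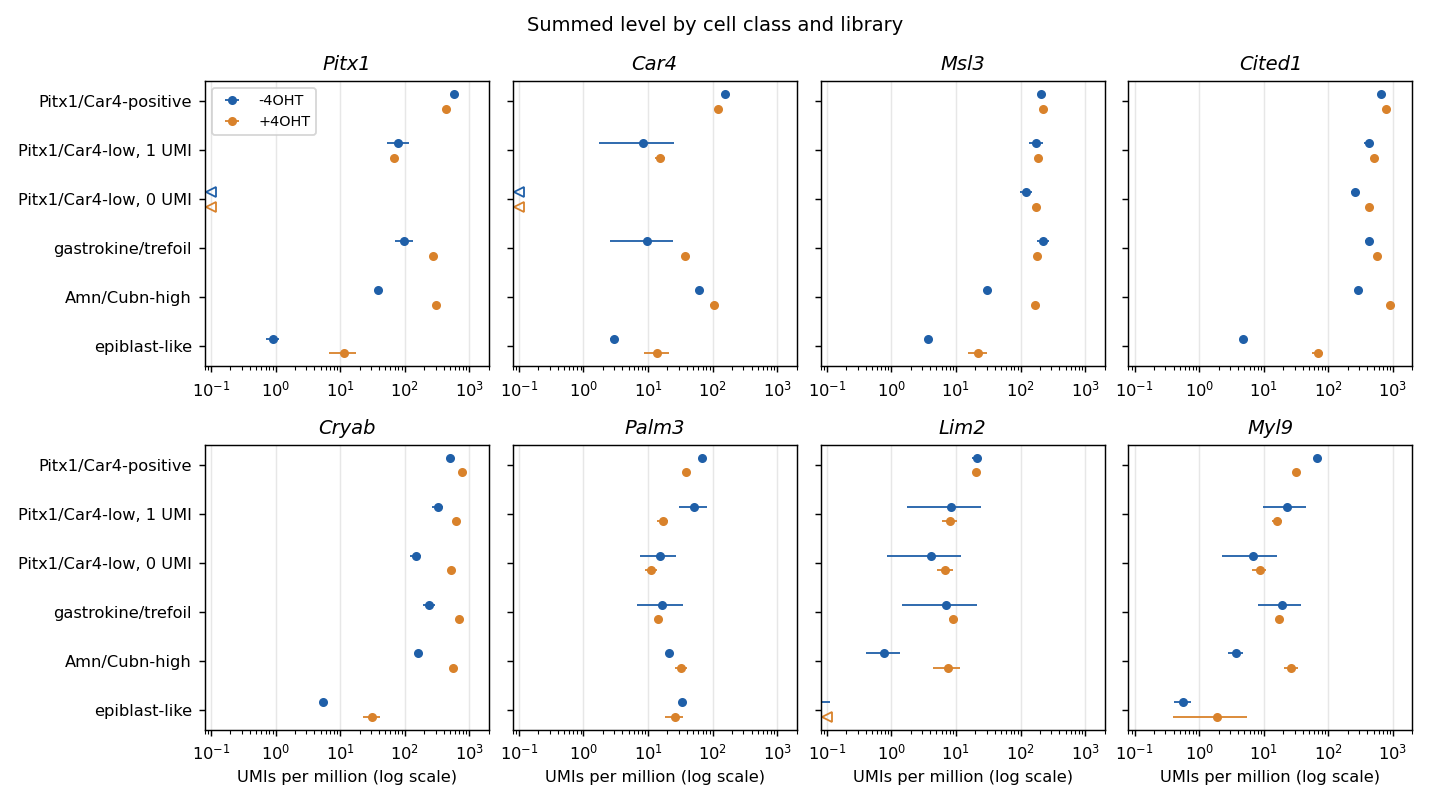
Summed level of each gene (UMIs per 1000000, log scale) in each endoderm class and in epiblast-like cells of the -4OHT (blue) and +4OHT (orange) libraries; lines are exact 95% Poisson intervals, and an open triangle marks a class without a UMI. Pitx1 and Car4 chose the top class, whereas Msl3, Cited1 and Cryab differ less between endoderm classes in +4OHT than in -4OHT.

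Within the cells that were neither Amn/Cubn-high nor gastrokine/trefoil, Car4 was seen more often in cells with Pitx1 than in cells without it. After thinning, Car4 was seen in 27.9% (23.4 to 32.7%) of cells with Pitx1 and 18.1% (13.4 to 23.7%) of cells without it in -4OHT. The intervals touched. In +4OHT they did not, at 21.3% (19.6 to 23.1%) and 12.8% (11.5 to 14.3%). In epiblast-like cells of -4OHT without Pitx1, Car4 was seen in 0.963%. The members also lay together on genes that the rule did not read. Among the 15 nearest neighbours of a member, 85.3% were members in -4OHT and 68.3% in +4OHT, against 10.9% and 34.4% around other endoderm cells. Without the Amn/Cubn-high and gastrokine/trefoil cells the contrast narrowed, to 94.2% against 77.8% and 82.4% against 57.2%, where members made up 84.8% and 70.5% of cells.

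The marker genes that the rule did not read were higher in the members of both libraries, by amounts that differed between libraries. Msl3 stood at 208 CPM in members and 42.6 in the remaining endoderm of -4OHT (4.89-fold, 4.48 to 5.35), but at 220 and 179 in +4OHT (1.23-fold, 1.19 to 1.26). Cited1 stood at 645 against 291 (2.22-fold) and at 767 against 548 (1.40-fold). Cryab stood at 506 against 167 (3.04-fold) and at 784 against 636 (1.23-fold). The members' own levels of Msl3 were close in both libraries, and it was the reference that differed.

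Only 4 genes beside the pair were at least 2-fold higher in the members of both libraries, 0.0673% of the 5940 genes with 20 or more CPM and 50 or more UMIs in the members of both. Palm3, a paralemmin-family protein of the plasma membrane, stood at 68.0 against 21.5 CPM in -4OHT (3.16-fold, 2.76 to 3.62) and at 38.1 against 15.4 in +4OHT (2.47-fold, 2.26 to 2.70). Lim2, a membrane protein of lens fibre cells, stood at 21.0 against 1.24 and at 20.5 against 8.32. Myl9, a myosin regulatory light chain of contractile cells, stood at 67.0 against 4.59 and at 31.9 against 15.9. These genes were not in every member: Palm3 was counted in 50.7% and 33.1% of members, Myl9 in 32.4% and 20.2%, and Lim2 in 23.3% and 21.2%. Palm3 was also present in epiblast-like cells, in 41.2% and 20.2% of them; Lim2 was in 0.0759% of them in -4OHT. 2210011C24Rik, an uncharacterised protein-coding gene, stood at 78.3 against 18.6 (4.21-fold) and at 59.7 against 29.4 (2.03-fold). It is the upstream neighbour of Palm3 on mouse chromosome 8, on the opposite strand, with 9300 bases between the annotated starts (GRCm38, chr8:84010222-84012171 and chr8:84021471-84030295). Judged by library alone, 408 genes passed in -4OHT and 5 in +4OHT, so that few genes of the -4OHT list met the +4OHT criterion.

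RefSeq promoter windows of GRCm38.p6, from 250 bases before to 50 bases after a start, were on hand for 9 of the 16 marker and leading genes of either reference. Pitx1, Cryab, 2210011C24Rik, Tagln, H19, Peg10 and Lgals1 had none. The windows were searched on both strands for TAATCC, the core bound by bicoid-type homeodomain factors, and for GAANNTTC, a core of the heat shock element. TAATCC was in 7.06% of all 32851 promoters and in 1 of the 24 windows of the named genes, that of the second start of Ltbp1 (described below). GAANNTTC was in 7.86% of all promoters and in none of the 24, which include windows of genes lower in the members and none of Cryab. The sequences shown are those of Car4, which chose the members, of Palm3, the leading gene, and of Ltbp1, where capitals mark the TAATCC match; all are on the plus strand, at chr11:84957504-84957803, chr8:84021224-84021523 and chr17:75178531-75178830.
Car4: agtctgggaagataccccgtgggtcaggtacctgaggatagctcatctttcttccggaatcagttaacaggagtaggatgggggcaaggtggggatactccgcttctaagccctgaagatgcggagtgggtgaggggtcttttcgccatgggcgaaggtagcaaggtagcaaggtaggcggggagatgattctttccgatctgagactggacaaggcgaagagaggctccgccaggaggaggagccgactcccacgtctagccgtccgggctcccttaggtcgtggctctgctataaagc
Palm3: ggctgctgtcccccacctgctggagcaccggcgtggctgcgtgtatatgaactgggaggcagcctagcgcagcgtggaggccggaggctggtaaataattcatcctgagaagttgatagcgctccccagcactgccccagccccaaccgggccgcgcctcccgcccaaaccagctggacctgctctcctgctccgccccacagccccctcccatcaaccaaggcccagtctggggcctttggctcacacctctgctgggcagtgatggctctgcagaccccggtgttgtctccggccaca
Ltbp1: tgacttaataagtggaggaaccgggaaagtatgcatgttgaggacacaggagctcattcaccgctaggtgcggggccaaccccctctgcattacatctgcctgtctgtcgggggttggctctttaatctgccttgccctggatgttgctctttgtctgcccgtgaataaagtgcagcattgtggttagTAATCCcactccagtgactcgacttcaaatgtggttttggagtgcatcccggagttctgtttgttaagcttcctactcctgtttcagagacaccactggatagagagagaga

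Genes that were lower in the members formed a longer list, 14 genes or 0.257% of the 5447 that reached those minimums in the remaining endoderm of both. Several encode cell surface or secreted proteins. Gjb5, a gap junction connexin, stood at 3.88 CPM in the members and 161 in the remaining endoderm of -4OHT, and at 5.95 and 29.5 in +4OHT. Ly6a, a GPI-anchored surface protein, stood at 2.81 against 91.3 and at 5.19 against 33.5. Spink1, a secreted trypsin inhibitor, stood at 16.7 against 105 and at 8.66 against 30.3, and Tfpi, the inhibitor of tissue factor, at 56.9 against 285 and at 25.7 against 78.9. The uridine phosphorylase gene Upp1 stood at 57.5 against 294 and at 6.31 against 25.4. Spp1 (osteopontin), Marcks, Egr1, Dkkl1, Serpinb9b, Sgk1, Plet1, Lgals3 and Epha4 completed the list, at 0.176 to 0.491 times the reference. High doublet scores touch some of these values: the 54 such members held 77.0% of the members' Upp1 and 72.1% of their Spp1 UMIs in -4OHT, where without them Upp1 stood at 16.7 CPM and Spp1 at 29.8. They also held 52.4% of Ly6a, 47.3% of Marcks and 44.4% of Egr1 UMIs, and without them these genes stood at 1.69, 13.02 and 5.07 CPM. Without such barcodes in either library, 6 genes were 2-fold higher and 17 were 2-fold lower in both. Several of the lower genes were also present in epiblast-like cells of -4OHT, Upp1 in 95.0%, Spp1 in 94.2%, Tfpi in 58.3%, Marcks in 58.2% and Gjb5 in 23.0% of them.

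A closer reference was the cells that met every other part of the rule but had no UMI of the pair, 62 in -4OHT and 675 in +4OHT, called Pitx1/Car4-negative cells. Of these cells, 16.1% in -4OHT and 3.85% in +4OHT were among the barcodes of highest doublet score. Against the negative cells 11 genes were 2-fold higher in both libraries (0.185% of 5940), and all 4 genes above were among them. The added genes were Tagln, an actin-binding protein of smooth muscle, the imprinted genes H19 and Peg10, Mamld1, Ltbp1, which binds latent TGF-beta in the matrix, Lgals1 and Ddc, which makes dopamine and serotonin from their precursors. Mamld1 stood at 38.9 against 4.15 CPM in -4OHT and at 37.8 against 16.4 in +4OHT. Peg10 stood at 563 against 159 and at 579 against 254. Ddc stood at 134 against 41.5 and at 126 against 60.3. The 62 negative cells of -4OHT held few UMIs of such genes, and the intervals are wide, 3.18 to 45.7 for the 9.37-fold difference of Mamld1 against 1.92 to 2.79 for the 2.30-fold difference in +4OHT. In the other direction 15 genes were 2-fold lower in both libraries (0.628% of 2390). Of the 14 lower genes above, Spink1, Tfpi, Upp1, Marcks, Sgk1 and Spp1 were among them, and the rest, Gjb5 and Ly6a included, were not. Fewer genes reached the minimums in the negative cells, 2390 against 5447, so a gene can be missing for its low count. Clu, which encodes the secreted chaperone clusterin, stood at 79.8 against 595 and at 77.4 against 504, and Car2, a cytosolic carbonic anhydrase, at 28.9 against 123 and at 62.1 against 127.

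Members were deeper than negative cells, so the same genes were followed at similar depth. Cells, members and others alike, were grouped by their count of the pair after thinning to 2700 UMIs, which left medians of 12148 to 12575 UMIs in -4OHT and 12376 to 13129 in +4OHT. From 0 to 3 or more thinned UMIs, Cited1 went from 420 to 793 CPM in -4OHT and from 544 to 993 in +4OHT, with each step upward. Palm3 went from 37.4 to 95.4 and from 23.5 to 47.8, and Myl9 from 25.7 to 107 and from 19.5 to 42.7. Clu went from 249 to 74.9 and from 256 to 45.4, and Tfpi from 128 to 26.7 and from 78.5 to 13.9, with most of the difference in Clu between no UMI and 1. Msl3 showed no such trend, at 185 to 215 and 197 to 225 over the 4 groups. The group without a thinned UMI holds members as well as negative cells. Against the negative cells alone, Msl3 was higher in the members, at 208 against 123 CPM in -4OHT (1.69-fold, 1.37 to 2.12). In +4OHT it stood at 220 against 171 CPM (1.29-fold, 1.21 to 1.37). In Amn/Cubn-high cells, which made up most of the remaining endoderm of -4OHT, Msl3 stood at 30.6 CPM.

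**Figure D2:**
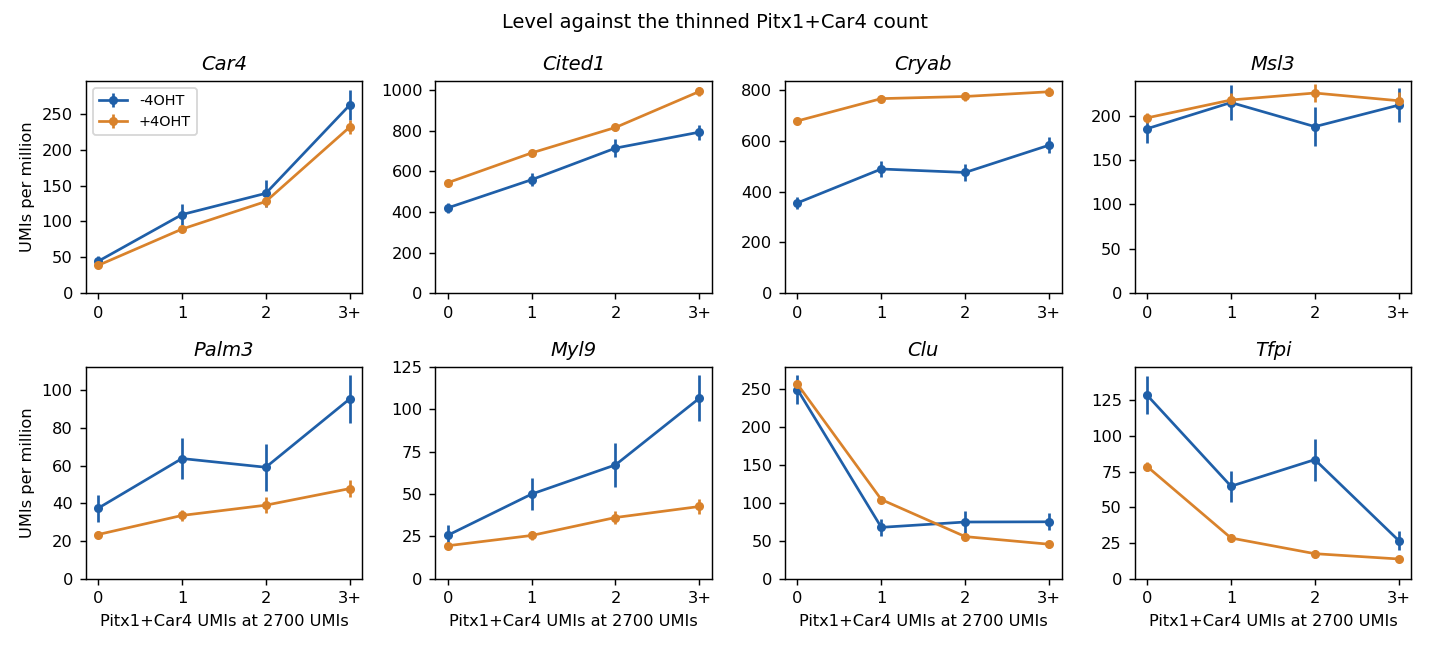
Level of 8 genes (UMIs per 1000000, linear axes from 0) against the cell's Pitx1+Car4 count after thinning to 2700 UMIs, in endoderm cells that were neither Amn/Cubn-high nor gastrokine/trefoil; lines are 95% Poisson intervals. Cited1, Palm3 and Myl9 are higher in cells with 3 or more than in cells with none, Clu and Tfpi are lower, and Msl3 stays between 185 and 225 in both libraries.

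Gene lists by function were described against the negative cells by the median log2 ratio of their members, with no test; over all 5923 genes with a mean of 20 or more CPM the median was 0.05 in -4OHT and 0.01 in +4OHT. Of these genes, 38.0% were higher and 29.1% lower in the members of both libraries. The 10 listed contractile genes summed to 737 CPM in members and 379 in negative cells of -4OHT and to 910 and 708 in +4OHT; 3 of them passed the filter, among them the leading genes Myl9 and Tagln. Among lists with 5 or more genes in the filter the visceral endoderm list had the lowest medians, -1.26 and -0.59, with 5 of 6 genes lower in both libraries. Among these, the retinol carrier Rbp4 stood at 39.4 against 148 CPM in -4OHT and at 58.0 against 92.9 in +4OHT, whereas the endocytic receptor Lrp2 stood slightly higher in the members, at 220 against 192 and at 227 against 188. The 9 immediate early genes had medians of -0.65 and -0.51, with 8 lower in both, and the 16 lysosome and endocytosis genes -0.46 and -0.30, with 11 lower in both. Egr1, a growth factor response gene, had the lowest ratio of the former, at 7.22 against 66.4 and 11.7 against 48.8. All 19 S phase genes and all 20 mitosis genes were higher in both libraries, with medians of 0.40 and 0.61 and of 0.53 and 0.68. Without barcodes of high doublet score the medians were 0.64 and 0.65 for S phase and 0.77 and 0.70 for mitosis. The reference mattered. Against the remaining endoderm the immediate early medians were 0.62 in -4OHT and -0.39 in +4OHT. There the mitosis medians were 0.08 and 0.43 and the S phase medians 0.23 and 0.51, against 0.09 and 0.01 over all 5791 genes in that filter. The visceral endoderm medians, -0.61 and -0.29, and the lysosome medians, -0.73 and -0.31, stayed negative. In -4OHT that reference was mostly Amn/Cubn-high cells, which the rule keeps out of the members, so these signs are partly set by the rule.

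The lists were also summed in the cells grouped by thinned count, where the group without a thinned UMI holds members as well as negative cells, so that these values are no correction of the medians for depth. The 20 S phase genes summed to 1633 CPM in -4OHT cells without a thinned UMI of the pair and to 1661 in those with 3 or more. The +4OHT values were 1288 and 1412, and the mitosis genes summed to 2923 and 3573 in -4OHT and 2556 and 2781 in +4OHT. The immediate early genes summed to 1077 and 981 in -4OHT and to 1744 and 1359 in +4OHT, and the lysosome genes to 5815 and 5427 and to 7195 and 6780. Taken as ratios between the same cells, each of these differences was smaller than those of Cited1, Palm3 and Clu. In CPM this did not hold, since some of the sums differed by more than Palm3 and Clu did, and each sum covers many genes.

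**Figure D3:**
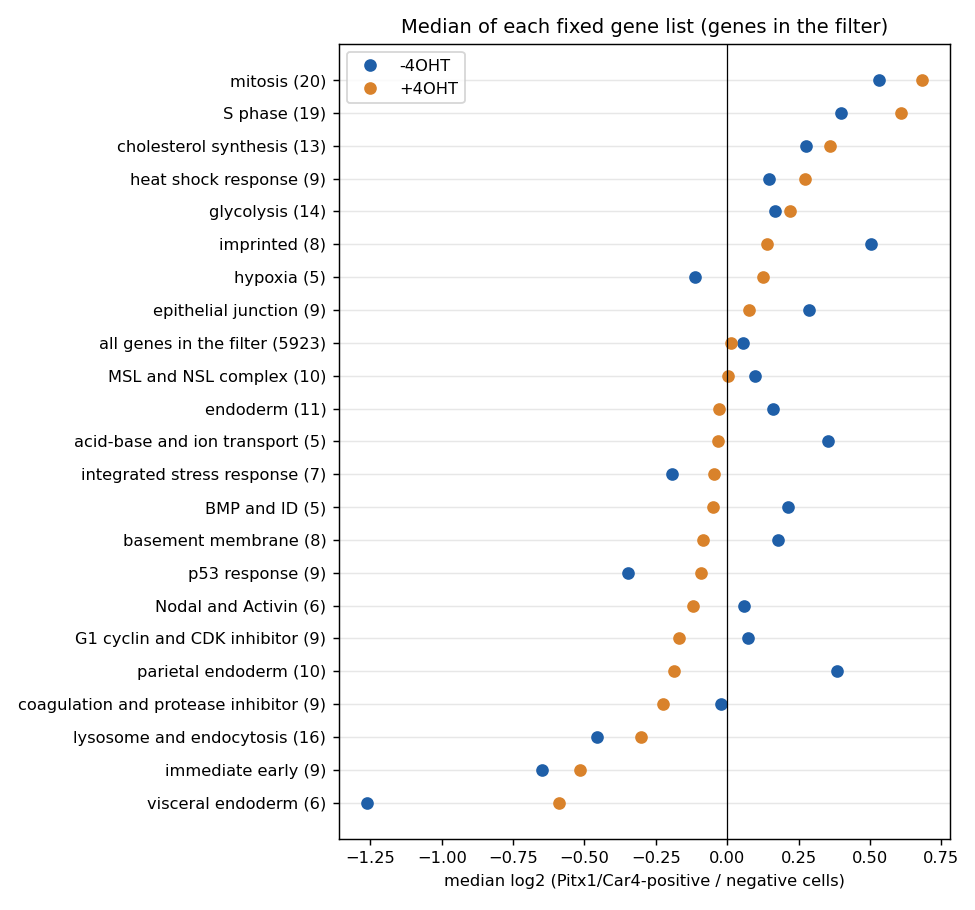
Median log2 ratio of Pitx1/Car4-positive over Pitx1/Car4-negative cells for each gene list with 5 or more genes in the filter, and for all 5923 genes, in -4OHT (blue) and +4OHT (orange); the number of genes is in brackets. Mitosis genes lie highest and visceral endoderm genes lowest in both libraries, while the imprinted list lies above S phase in -4OHT and below it in +4OHT.

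Among paralogs of the marker genes, Car2 and Car8 went the other way from Car4; Car8, a family member that lacks enzyme activity, stood at 19.6 CPM in members and 41.5 in negative cells of -4OHT and at 30.1 and 46.8 in +4OHT. Of the 10 MSL and NSL complex genes in the filter, Msl3 was the single gene 2-fold higher than in the remaining endoderm of -4OHT, and none was in +4OHT.

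Some of these genes were spread over the members and others came from few. Pitx1 was counted in 98.7% and 97.6% of members, and Peg10 in 90.0% and 86.9%. H19, an imprinted long noncoding RNA, was counted in 29.3% of -4OHT members and 45.0% of +4OHT members, with up to 149 and 208 UMIs in a cell. Tagln was counted in 10.6% and 14.4% of members. The 10 highest members held 66.9% of its UMIs in -4OHT and 20.2% in +4OHT, and the 17.4-fold difference of Tagln in -4OHT rests on few cells. Members with Pitx1 and Car4 both and members with Pitx1 alone stood at 662 and 626 CPM of Cited1 in -4OHT and at 800.3 and 730.1 in +4OHT. Clu was lower in members with both, at 47.4 and 135 in -4OHT and 51.8 and 121 in +4OHT. H19 went opposite ways, at 252 and 469 in -4OHT and 347 and 296 in +4OHT.

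Between the libraries, the members of +4OHT were compared with those of -4OHT gene by gene; 80 genes were 2-fold higher with 4OHT (1.2% of 6653) and 75 were 2-fold lower (1.13%). The genes with the largest ratios upward were Vill (villin-like, 5.75 to 23.3 CPM), Sfn (stratifin, 6.41 to 21.7), Ccdc68 (6.95 to 20.3), Thbd (thrombomodulin, 47.4 to 134) and Serpinb9b (10.4 to 28.7). The genes with the largest ratios downward were Igfbp1, Stmn2, Tdgf1, Trh and Nanog. Igfbp1, which encodes a secreted binder of insulin-like growth factors, went from 39.0 CPM to 0 of the +4OHT members' UMIs, at least 581-fold lower at a floor of 3 counts over the group, and 89.0% of its UMIs lay in 10 members. Pou5f1 itself stood at 9.35 CPM in the -4OHT members and 1.16 in +4OHT, against 47.8 in epiblast-like cells of -4OHT. Reads at the 3′ end may lie outside the deleted part of the gene, so these values do not check the deletion.

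Epiblast genes of the downward list were concentrated in barcodes of high doublet score, and other genes of the list were not. Of the 75 lower genes, 57 were higher in epiblast-like cells than in the members of -4OHT. The share over all genes is not given here. The 54 members of high doublet score, which held 21.0% of the members' UMIs, held 86.6% of Sox2, 80.7% of Nanog and 81.0% of Tdgf1 UMIs. They also held 71.4% of the UMIs of Pou5f1, which is not on the list. They held 4.45% of Igfbp1, 13.7% of Nefl and 9.18% of Myl9 UMIs. The score is computed from the same counts, so it is no separate evidence of doublets. Without such barcodes in either library, 41 genes were higher with 4OHT, 39 of them as before, and 38 were lower, 28 of them as before, and 10 of the 38 were higher in epiblast-like cells. Pou5f1 then stood at 3.38 and 1.09 CPM. The part of doublets in the remaining values was not tested.

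After that removal Igfbp1 still had the largest ratio downward, at 47.2 CPM in -4OHT and 0 in +4OHT. Nefl, the neurofilament light chain, stood at 85.0 CPM in -4OHT and 11.2 in +4OHT, the cyclin gene Ccnd2 at 448 and 150, and the cell surface glypican gene Gpc3 at 106 and 30.7; these were picked after their values were seen. All 14 glycolysis genes in the filter were lower with 4OHT, with a median of -0.74 against 0.05 over all genes, and 13 of 14 cholesterol synthesis genes were higher, with a median of 0.48; of all 6295 genes, 2559 were lower and 3736 higher. Ldha, the lactate dehydrogenase subunit of glycolytic tissue, stood at 560 and 192, and the glycolytic enzyme gene Pgk1 at 326 and 149. Ldha was not particular to the members: with all barcodes, it stood at 400 and 156 in the negative cells, 519 and 225 in Amn/Cubn-high cells, 428 and 153 in gastrokine/trefoil cells and 468 and 72.4 in epiblast-like cells. The 5 marker genes differed less than 2-fold, with Pitx1 at 658 and 440, Car4 at 176 and 127, Msl3 at 237 and 222, Cited1 at 730 and 775 and Cryab at 587 and 794.

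**Figure D4:**
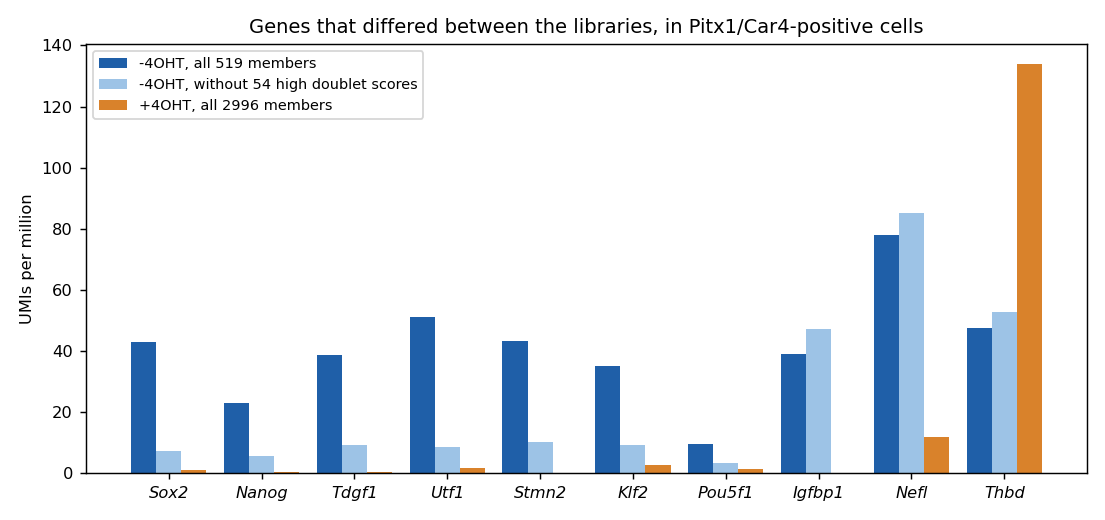
Levels (UMIs per 1000000, linear axis from 0) of 10 genes in the Pitx1/Car4-positive cells of -4OHT, with all 519 members and without the 54 of high doublet score, and of +4OHT. Sox2, Nanog, Tdgf1, Utf1, Stmn2 and Klf2 drop without those barcodes, whereas Igfbp1 and Nefl do not.

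The sorted OCT4-mCherry populations, which the rule did not read, gave a test across 3 libraries per group. In bulk RNA, fewer Pitx1/Car4-positive cells and less RNA per cell cannot be told apart. DP and Oct4+ were both compared with the same Pdgfra+ libraries, so the comparisons share them. A gene was called at a Benjamini-Hochberg adjusted p under 0.05 in edgeR's quasi-likelihood test over all genes and an absolute log2 fold change over 1.5. No label states that bulk libraries are paired, and same-numbered DP and Pdgfra+ libraries were taken as pairs from the data. Values with the number as a block, fitted on those 6 libraries, are given where they change a call. That fit was not planned, and calls that it alone makes are less secure.

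All 5 marker genes were highest in Pdgfra+ and lowest in Oct4+. Pitx1 stood at 325, 344 and 790 counts per 1000000 (CPM) in Pdgfra+, 132, 42.1 and 150 in DP, and 1.39, 3.30 and 0 in Oct4+. The 3 groups did not overlap. The log2 difference of DP from Pdgfra+ was -2.19 ± 0.62 (SE, n = 3 per group, edgeR adjusted p = 0.0631), not a call, and -2.23 with the block (edgeR adjusted p = 0.0184), a call. Msl3 stood at 163, 137 and 239 CPM in Pdgfra+, 95.3, 35.9 and 61.5 in DP, and 3.25, 5.91 and 3.53 in Oct4+. Its groups did not overlap either. The log2 difference of DP from Pdgfra+ was -1.50 ± 0.35 (edgeR adjusted p = 0.0369), just short of the size threshold, and -1.55 with the block (edgeR adjusted p = 0.0191). Cryab stood at 181, 248 and 241 CPM in Pdgfra+, 141, 141 and 133 in DP and 3.56, 7.66 and 5.13 in Oct4+, with a log2 difference of DP from Pdgfra+ of -0.70 ± 0.22 (edgeR adjusted p = 0.0803).

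Car4 was the exception in spread. It stood at 20.3, 50.1 and 181 CPM in Pdgfra+, 19.2, 38.1 and 96.2 in DP and 1.94, 28.0 and 2.67 in Oct4+, and the groups overlapped in each comparison. The log2 difference of DP from Pdgfra+ was -0.73 ± 1.003 (edgeR adjusted p = 0.681), and turned to 0.53 without Pdgfra+ replicate 3. That library also held the highest Pitx1, Cited1 and Msl3.

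In counts, 0 of the 5 markers were called in DP against Pdgfra+, where 0.691% of 14185 genes were called lower and 3.2% higher. All 5 were lower in DP, with a median log2 difference of -0.96 against 0.02 over all genes; 3 had an unadjusted p under 0.05, DESeq2 also called 0, and the block called 2, Pitx1 and Msl3, where it called 1.58% of genes lower and 4.11% higher. Against Pdgfra+, all 5 were called lower in Oct4+, where 14.7% of genes were called lower and 17.3% higher. The log2 difference was -8.23 for Pitx1 (edgeR adjusted p = 3.12e-05) and -2.93 for Car4 (edgeR adjusted p = 0.0375), the latter lost without Pdgfra+ replicate 3 (0.182), Oct4+ replicate 1 (0.0993) or Oct4+ replicate 3 (0.0978). Against Oct4+, 4 of the 5 were called higher in DP, all but Car4, where 13.1% of genes were called higher and 14.6% lower.

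**Figure D5:**
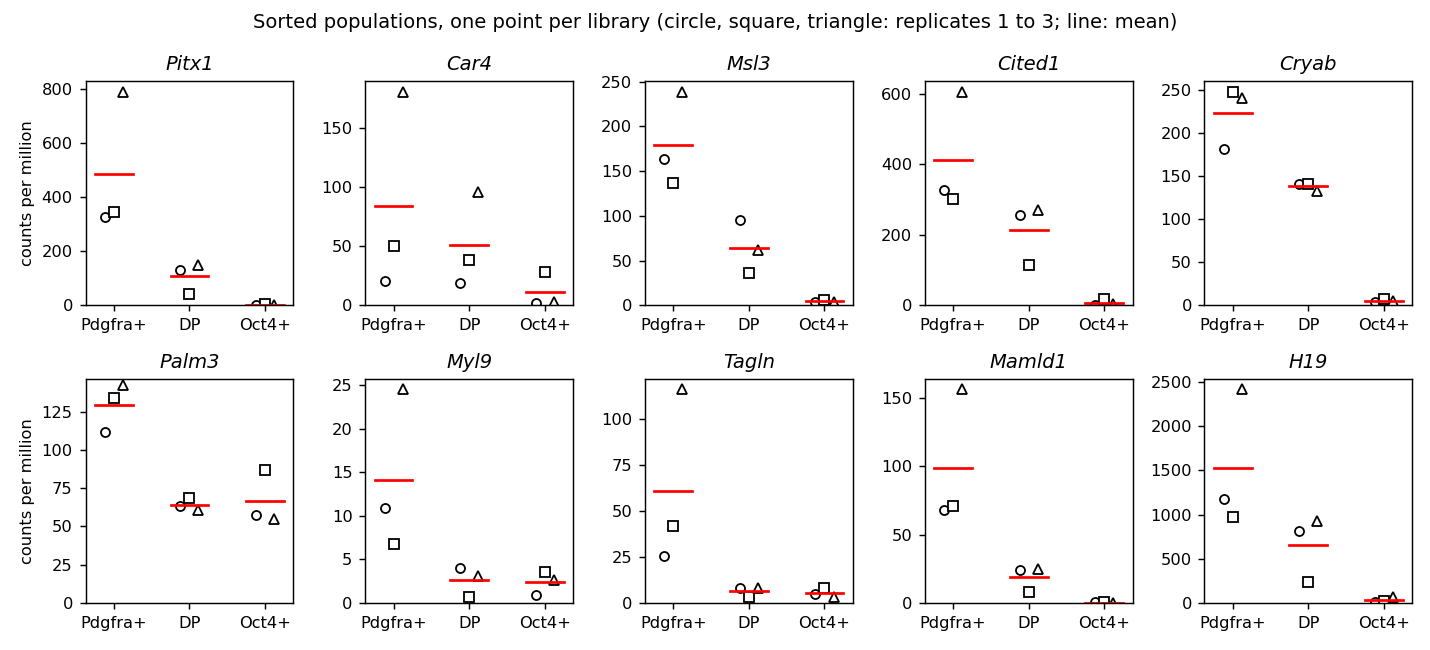
Counts per 1000000 (linear axes from 0) of the 5 marker genes and of 5 genes higher in the members in each sorted population; each point is a library, its shape the replicate number, and the red line the mean of 3. Pdgfra+ holds the highest mean for all 10 genes, and the Palm3, Myl9 and Tagln points of DP and Oct4+ overlap.

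Of the 4 genes that led the single-cell comparison, Palm3 and Myl9 passed the bulk filter on low counts and Lim2 and 2210011C24Rik did not. Palm3 stood at 112, 134 and 142 CPM in Pdgfra+, 63.1, 68.6 and 60.9 in DP and 57.8, 87.0 and 55.0 in Oct4+. The log2 difference of DP from Pdgfra+ was -1.02 ± 0.19 (edgeR adjusted p = 0.0183), short of the size threshold. Myl9 stood at 10.9, 6.80 and 24.6 CPM in Pdgfra+, 4.02, 0.717 and 3.04 in DP and 0.929, 3.59 and 2.67 in Oct4+. For both genes the DP and Oct4+ libraries overlapped, and the differences between them were -0.09 ± 0.18 for Palm3 (edgeR adjusted p = 0.689) and 0.08 ± 0.71 for Myl9 (edgeR adjusted p = 0.935). For Myl9 the log2 difference of DP from Pdgfra+ was -2.46 ± 0.70 (edgeR adjusted p = 0.0627), a call with the block (-2.44, edgeR adjusted p = 0.0193) and by DESeq2 (DESeq2 adjusted p = 0.00685). In edgeR without the block 0 of the 2 were called in DP, where 0.691% of all genes were called lower, and both had an unadjusted p under 0.05.

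Of the 11 genes that led against negative cells, 9 passed the filter, all 9 were lower in DP than in Pdgfra+, and 2 were called, or 5 with the block. Over all genes, 0.691% were called lower in DP, or 1.58% with the block. Tagln stood at 25.3, 41.6 and 116 CPM in Pdgfra+, 8.30, 2.99 and 8.32 in DP and 4.65, 7.85 and 3.20 in Oct4+ (DP against Pdgfra+ -3.24 ± 0.61, edgeR adjusted p = 0.0202). Mamld1 stood at 68.1, 71.1 and 156 CPM in Pdgfra+, 24.3, 7.65 and 25.1 in DP and 0.310, 0.582 and 0 in Oct4+ (-2.39 ± 0.50, edgeR adjusted p = 0.0271). No library of DP reached a library of Pdgfra+ for either gene. Both calls were lost without DP replicate 2, DP replicate 3 or Pdgfra+ replicate 3 (edgeR adjusted p = 0.0726, 0.0628 and 0.0697 for Tagln, 0.0689, 0.0690 and 0.106 for Mamld1), and that of Mamld1 also without Pdgfra+ replicate 2 (0.0567). The block added Myl9, Peg10 and Ddc.

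Of the 14 genes that were lower in the members, 13 were higher in DP than in Pdgfra+, with a median log2 difference of 1.43, and 6 were called higher: Ly6a, Gjb5, Upp1, Marcks, Spp1 and Dkkl1. Over all 14185 genes, 3.2% were called higher in DP. Gjb5 stood at 29.6, 7.60 and 7.18 CPM in Pdgfra+, 113, 129 and 152 in DP and 9.45, 8.53 and 13.9 in Oct4+ (DP against Pdgfra+ 3.15 ± 0.50, edgeR adjusted p = 0.0131). Marcks stood at 13.1, 5.70 and 13.5 CPM in Pdgfra+, 59.7, 110 and 103 in DP and 102, 104 and 69.8 in Oct4+ (3.07 ± 0.35, edgeR adjusted p = 0.00725). Gjb5 was thus high in DP alone of the 3 populations, with DP also above Oct4+ (3.58 ± 0.51, edgeR adjusted p = 0.000247), whereas a difference of Marcks between DP and Oct4+ was not larger than its spread (-0.06 ± 0.32, edgeR adjusted p = 0.887). Spink1, which was low in the members, did not separate DP from Pdgfra+, at 42.5, 28.8 and 22.7 CPM in Pdgfra+ and 38.2, 19.4 and 32.3 in DP (-0.08, edgeR adjusted p = 0.926). Amn and Cubn, the receptor genes that keep a cell out of the members, were higher in DP than in Pdgfra+ by 2.02 and 1.91 on the log2 scale (edgeR adjusted p = 0.0288 and 0.0463). Their part in the marker differences was not tested.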

How the data were processed

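Oct4LOF nEnd cells were profiled in 1 droplet library without and 1 with 4OHT, and sorted OCT4-mCherry nEnd populations in 9 bulk libraries. The single-cell counts are UMI counts per gene and barcode, made by the authors with Cell Ranger 6.1.2 (per the file headers) against mm10. The bulk counts are whole-number read counts per gene as deposited by the authors, and the sources used here name no aligner, counter or build for them. Bulk libraries held 8.02 to 11.6 × 1000000 counts over 48952 genes, and lines without a gene name held no counts.

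Class levels are summed UMIs per 1000000 (CPM) with exact Poisson intervals. Shares have exact Clopper-Pearson intervals, and ratios exact conditional ones. A gene was named as higher or lower at 2-fold in both libraries, with 20 CPM in the higher class and 50 UMIs. Neighbours were the 15 nearest cells in 20 principal components of 2000 variable genes without the genes of the rule. Scrublet (scanpy 1.11.5) marked 201 barcodes (2.91%) as doublets in -4OHT and 0 in +4OHT, where it did not work, so values without the 5% of barcodes of highest score were added after the data were seen. No barcode was removed as a doublet otherwise.

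Bulk counts were tested with edgeR 4.0.16 (quasi-likelihood, TMM, filterByExpr, 14185 genes, all 9 libraries in 1 fit) in R 4.3.3, with DESeq2 1.42.0 as an alternative. The labels number the bulk replicates 1 to 3. Deviations of same-numbered DP and Pdgfra+ libraries from their group means correlated at 0.271, 0.477 and 0.321. These numbers were taken as pairs on that ground alone, and libraries of unlike number were not compared. Correlations in the other comparisons ran from -0.073 to 0.152, and those numbers were not taken as pairs. The single-cell and bulk scripts were tested on simulated data.

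Named genes were the 5 markers, the genes the rule reads, the leading and lower genes ranked by the smaller fold of both libraries, the 5 genes of largest ratio in each direction between libraries, Pou5f1, 2-fold members of fixed lists and paralogs of the markers. Members, markers and lists were chosen with earlier results of these data known. Alternatives covered the filters, the reference, thinning to 2700 UMIs, left-out libraries, the replicate block and DESeq2. Promoter windows came from RefSeq, GRCm38.p6, and gene positions from GENCODE on GRCm38. One result is not reported here.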

Additional observations from a re-analysis of the deposited data

Results flagged for a closer look

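For 2 genes the members stood above the remaining endoderm in one library and below it in the other. Clu, which encodes the secreted chaperone clusterin, was at 1.11 times the remaining endoderm in -4OHT and at 0.292 times in +4OHT. Cd24a, a GPI-anchored surface protein gene, was at 2.33 times in -4OHT and at 0.399 times in +4OHT. With 1 library per condition the difference was not tested, and the reference differed in makeup, mostly Amn/Cubn-high cells in -4OHT and mostly gastrokine/trefoil cells in +4OHT. Against Pitx1/Car4-negative cells both genes were lower in the members of both libraries, at 0.134 and 0.154 times for Clu and at 0.432 and 0.302 times for Cd24a.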

How the results depend on the processing

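The share of endoderm cells that were members, 36.2% in -4OHT, was 41.4% with a mitochondrial maximum of 8%, 32.8% with 3 or more UMIs of the pair, 19.5% in thinned cells and 15.9% by Car4 alone. In +4OHT, 47.6% became 41.1% with 3 or more UMIs, 19.7% in thinned cells, 43.7% by Pitx1 alone and 17.9% by Car4 alone. The 4 leading genes became 11 against negative cells, 0 at a filter of 100 CPM, 104 with no filter and 1 in thinned cells. The 14 lower genes became 0 at 100 CPM and 276 with no filter. The 155 genes apart between libraries became 26 at 100 CPM, 2874 with no filter and 79 without high doublet scores.

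In bulk, the count of leading genes called in DP against Pdgfra+ went from 0 to 1 with no filter, with DESeq2 and with the replicate block on the pair alone. With the replicate block over all 9 libraries it stayed at 0, with 1 in Oct4+ against Pdgfra+ and 0 in DP against Oct4+. The 1 call in Oct4+ against Pdgfra+ became 0 at 10 CPM in 3 libraries. Leaving out 1 library gave 0 to 0, 1 to 1 and 0 to 0 calls. The sign of Myl9 in DP against Oct4+ turned with the replicate block (-0.019) and ranged from -0.36 to 0.55 over left-out libraries. Left-out libraries also turned Car4 in DP against Pdgfra+ (-1.57 to 0.53), Lgals1 (-0.24 to 0.54) and Ddc (-0.23 to 0.55) in Oct4+ against Pdgfra+, and Palm3 in DP against Oct4+ (-0.20 to 0.15). The cause was not tested. Of the bulk fold changes under alternatives, 545 kept direction and side of the threshold, 21 passed it newly, 11 lost it and 8 turned. The single-cell folds were less stable, with 129 classed as the same under alternatives and 95 as moved.

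One library per condition gives no replicate error for any single-cell value. Values without marked doublets could be given for -4OHT alone, where the share was 35.5%. Genes under 20 CPM were not described, and the 62 negative cells of -4OHT limit ratios against them.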
